A study of Danio rerio with 2 samples.

Results

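The 10 genes described here are marker genes of the pigment cells of zebrafish, measured in forebrain choroid plexus pooled from AB and nacre fish. They were chosen by name and make up 10 of the 25432 genes in the files. Melanophore genes account for 8 of them, namely mitfa, tyr, dct, tyrp1a, tyrp1b, pmela, pmelb and oca2, and pnp4a and gch2 stand for iridophores and xanthophores. RNA was sequenced from 2 libraries, each made from 12 to 19 pooled tissues. The fish were untreated, were 6 to 8 months of age and measured more than 3 cm. The pineal gland is described as removed at dissection, but pineal genes were still read, most of all in replicate 1, as given below. Per the labels, both libraries hold AB fish together with nacre fish, whose genotype is given as mitfa-/-. The labels used here do not give how many fish of each kind went into each pool, so the lines could not be compared. The libraries are labelled batch 1 and batch 2, here replicates 1 and 2, and a difference between them cannot be told apart from a difference between batches. As the labels give 1 group only, no test was run.

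Zebrafish carry 3 main kinds of pigment cell, all from the neural crest. Melanophores are black and make melanin inside melanosomes, iridophores reflect light from stacks of guanine crystals, and xanthophores are yellow from pteridines and carotenoids. The transcription factor Mitfa directs neural crest cells to the melanophore fate. The nacre mutation is a premature stop codon in mitfa, and nacre fish lack neural crest melanophores while they keep iridophores, xanthophores and the black pigment epithelium of the eye. Reads from mitfa can come from mutant as well as from wild-type transcripts, and gene totals do not tell these apart.

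The summed level of the 8 genes grouped as melanophore genes came almost wholly from pmelb, and the iridophore gene pnp4a was close to absent. The gene pmelb was at 146 ± 32.3 TPM (SD, n = 2), and the other 7 melanophore genes had means between 0.185 and 3.25 TPM. TPM is the read count divided by effective transcript length and scaled to the same sum in each library, so levels of different genes can be compared. Together the 8 melanophore genes summed to 129 TPM in replicate 1 and to 178 TPM in replicate 2, of which pmelb made up 95.3% and 94.6%. This sum cannot be read as coming from melanophores alone, because in zebrafish embryos pmelb is described in the pigment epithelium of the eye. The xanthophore gene gch2 was at 4.29 ± 1.90 TPM and pnp4a at 0.04 ± 0.0566 TPM. In pooled tissue, fewer cells of a kind and less RNA per cell cannot be told apart.

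The libraries held 11712489 and 13446356 expected counts in replicates 1 and 2. The tissue label was checked on the homeobox gene otx2b, whose mouse counterpart is required for choroid plexus development, and it was at 273 and 331 TPM. As otx2b is also among the markers of the retinal pigment epithelium used below, it does not tell these tissues apart. The replicates stood apart in pineal genes, with the pineal opsin gene exorh at 656 and 11.7 TPM, and in red blood cell genes, with hbba1 at 1322 and 4496 TPM. The expected counts of all 10 pigment genes were whole numbers in both libraries, as were those of most genes. Of all genes, 4.52% in replicate 1 and 4.20% in replicate 2 had counts that were not whole.

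**Figure D1:**
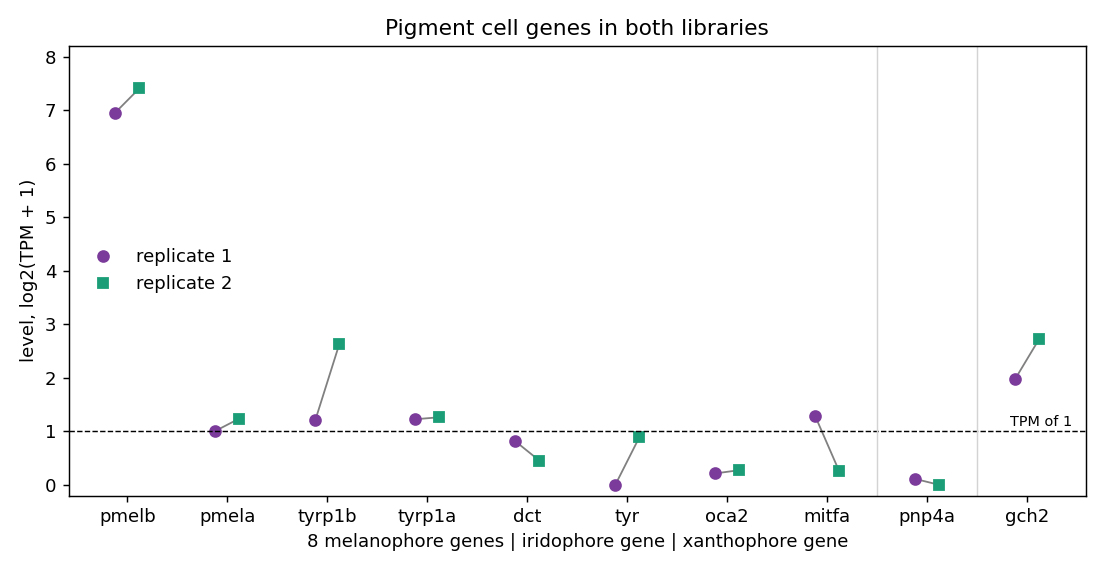
Level of each of the 10 pigment genes in replicate 1 (circles) and replicate 2 (squares), as log2(TPM + 1). Points of a gene are joined, and the dashed line marks a TPM of 1. The gene pmelb lies far above the others in both libraries, and pnp4a lies at the bottom.

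The structural protein genes of the melanosome came as a duplicate pair with very unequal levels. Pmel proteins form the amyloid fibrils on which melanin is laid down. In zebrafish embryos pmela is described in melanophores and in the pigment epithelium of the eye, and pmelb in that epithelium. Expected counts of pmelb were 2052 in replicate 1 and 3331 in replicate 2, which gave 123 and 169 TPM. That placed pmelb above 96.9% and 97.9% of all genes. Of all genes, 3.12% reached 100 TPM in both libraries. The copy pmela had 24 and 41 expected counts, or 1.01 and 1.36 TPM. The level of pmelb was thus 122-fold that of pmela in replicate 1 and 124-fold in replicate 2, and the ranges of the copies did not overlap.

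Among the enzymes of melanin synthesis, tyr and dct were at the edge of detection, and the tyrp1 genes were low but detected in both libraries. Tyrosinase, encoded by tyr, catalyses the rate-limiting oxidation of tyrosine, and dct and the tyrp1 genes encode related enzymes that act on the intermediates. No read of tyr was counted in replicate 1, and 16 were counted in replicate 2, at 0 and 0.85 TPM. Replicate 1 therefore allows up to 0.199 TPM of tyr, the level of 3 counts. Of all genes with a mean count of 5 to 100, 1.53% likewise had no read in replicate 1. For dct there were 11 and 7 expected counts, or 0.76 and 0.37 TPM. The gene tyrp1a was even between the libraries, with 20 and 26 expected counts and 1.34 and 1.40 TPM. Its duplicate tyrp1b had 20 and 99 expected counts, or 1.31 and 5.19 TPM. The duplicates were therefore close to each other in replicate 1, while in replicate 2 tyrp1b was at 3.71-fold the level of tyrp1a.

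The remaining melanophore genes were also low. The gene oca2, which encodes a melanosome membrane transporter needed for pigmentation, had 3 and 5 expected counts, or 0.16 and 0.21 TPM. The regulator mitfa had 15 expected counts in replicate 1, with a 95% exact Poisson interval of 8.40 to 24.7, and 3 in replicate 2, with an interval of 0.619 to 8.77. Such intervals cover counting error only. Its levels were 1.43 and 0.19 TPM. The duplicate mitfb, which is active in the pigment epithelium of the eye, was higher than mitfa in both libraries, at 6.72 and 3.23 TPM.

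**Figure D2:**
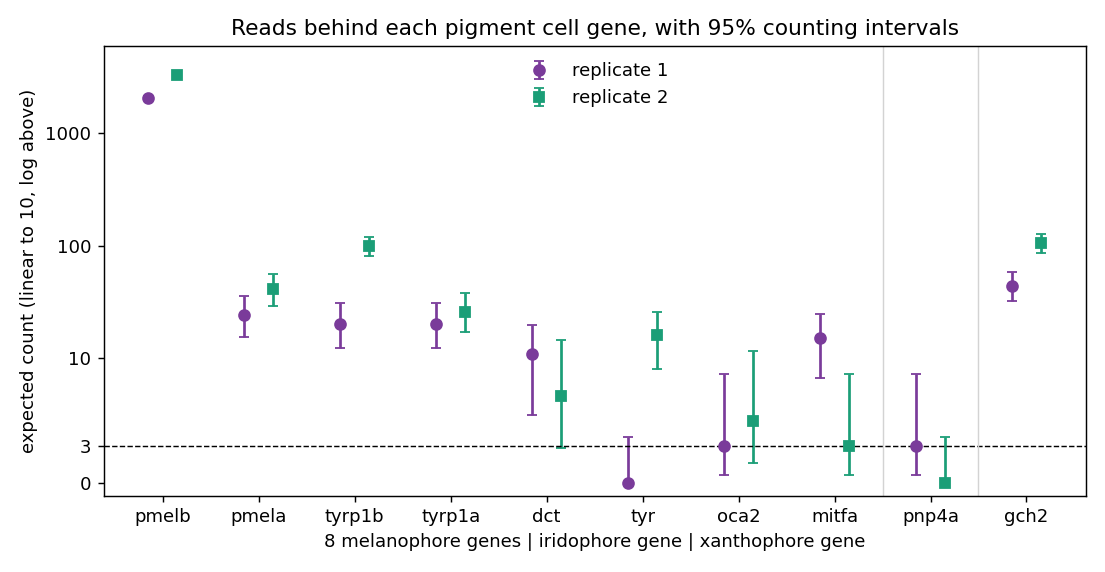
Expected counts of the 10 pigment genes in replicate 1 (circles) and replicate 2 (squares), on an axis that is linear to 10 and logarithmic above. Bars are 95% exact Poisson intervals and the dashed line marks 3 counts. Apart from pmelb, tyrp1b and gch2, each gene had at most 41 counts per library.

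With detection set at 1 TPM or more in each library, 4 of the 8 melanophore genes were detected, against 54.6% of all genes. These were pmelb, pmela, tyrp1a and tyrp1b, and the last 3 ranged from 1.01 to 5.19 TPM. The genes mitfa, tyr, dct and oca2 were not detected by this rule. With gch2, 5 of the 10 pigment genes were detected. Of these, pmelb alone reached a TPM of 10 in both libraries, as 26.3% of all genes did. By mean level the order was pmelb, gch2, tyrp1b, tyrp1a, pmela, mitfa, dct, tyr, oca2 and pnp4a. Neighbours from gch2 down to oca2 overlapped in their ranges over the libraries, so the order within each of these neighbouring pairs is not resolved. Genes further apart could still differ in both libraries, as gch2 (2.95 to 5.63 TPM) did from tyrp1a (1.34 to 1.40 TPM). The ranges of pmelb and gch2 did not overlap, nor did those of oca2 and pnp4a. In replicate 1, however, oca2 and pnp4a had 3 expected counts each, so their counts did not resolve their order there.

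**Figure D3:**
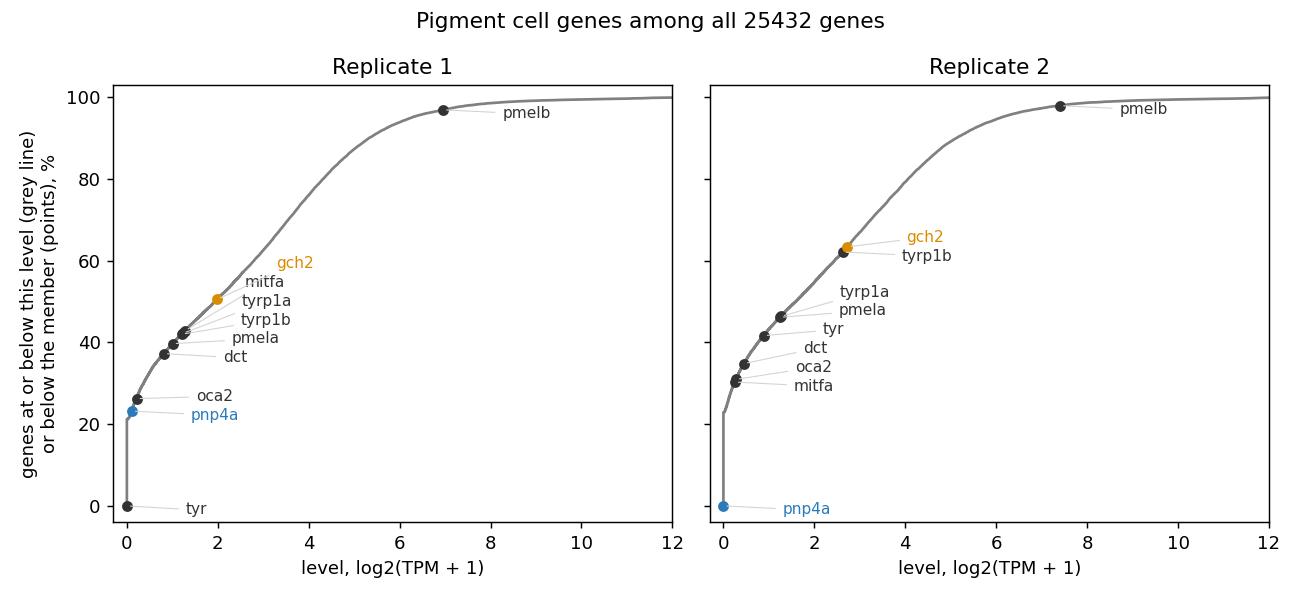
Position of the pigment genes (points) on the cumulative curve of all 25432 genes (grey) in replicate 1 (left) and replicate 2 (right). The horizontal axis is log2(TPM + 1) and the vertical axis is the percentage of genes at or below that level, for members the percentage below. Melanophore genes are black, pnp4a is blue and gch2 is orange, and pmelb lies above 96.9% and 97.9% of the genes.

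Set against pnp4a within each library, most melanophore genes were higher, as were most of all genes. The gene pnp4a encodes a purine nucleoside phosphorylase and is a standard marker of iridophores. It had 3 expected counts in replicate 1 and none in replicate 2, at 0.08 and 0 TPM. By TPM it ranked 19408 in replicate 1 and 19619 in replicate 2 among 25432 genes. Most genes were thus above it in each library, and 71.8% in both libraries. In replicate 1, 7 of 8 melanophore genes were above pnp4a, and for 6 of them the 95% counting interval of the ratio lay above 1. The ratio was 1561 for pmelb, with an interval of 534 to 7578, and 17.1 for tyrp1a, with an interval of 5.06 to 89.6. These ratios also rest on the effective length of pnp4a, which was 4261 in replicate 1 and 2874 in replicate 2. The intervals do not cover error in that length. For oca2 it was 1.98, with an interval of 0.266 to 14.8 that includes 1, and tyr had no read. In replicate 2 pnp4a had no read and was taken at 3 counts. Against that level pmelb was 1815-fold higher, tyrp1b 55.8-fold and tyr 9.15-fold. There the fold was lowest for oca2, at 2.26, and mitfa, with 3 counts, was too low for a fold. Such folds, here and below, leave out the counting error of the higher gene, so they are not 95% limits. The median difference on the log2(TPM + 1) scale was 1.00 in replicate 1 and 1.06 in replicate 2. With a pseudocount of 0.1 in place of 1, its mean over the libraries was 3.18 in place of 1.03, so its size depends on the pseudocount.

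Set against gch2, the melanophore genes other than pmelb had lower levels, although tyrp1b in replicate 2 could not be told apart from gch2 by its counts. The gene gch2 encodes a GTP cyclohydrolase that starts pteridine synthesis and marks xanthophores. It had 44 and 105 expected counts, or 2.95 and 5.63 TPM, and 36.1% of all genes were above it in both libraries. The level of pmelb was 41.7-fold that of gch2 in replicate 1 (95% counting interval 31.0 to 57.6) and 30.0-fold in replicate 2 (24.7 to 36.7). In replicate 1 mitfa was 2.07-fold lower than gch2 (1.13 to 4.00) and tyr, taken at 3 counts, 14.8-fold lower. In replicate 2 mitfa was 29.1-fold lower (9.69 to 143) and tyr 6.63-fold lower (3.90 to 12.0). For tyrp1b in replicate 2, the ratio of 0.922 to gch2 had an interval of 0.694 to 1.23 that includes 1. The median difference over the 8 genes was -0.87 and -1.67 on the log2(TPM + 1) scale in replicates 1 and 2. The gene gch2 was itself 37.4-fold higher than pnp4a in replicate 1 (12.0 to 188). With pnp4a taken at 3 counts, it was 60.6-fold higher in replicate 2.

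Between the libraries, the pigment genes did not move together. For each gene the ratio of CPM, the count scaled to the library total, was taken as replicate 2 over replicate 1, with an exact counting interval. The median log2 ratio of 15908 genes with a mean count of at least 10 was -0.17. The ratio was 1.41 for pmelb (1.34 to 1.49), 2.08 for gch2 (1.45 to 3.03) and 4.31 for tyrp1b (2.65 to 7.36). With replicate 1 taken at 3 counts, tyr was 4.65-fold higher in replicate 2, a fold without the counting error of its reads there. The opposite held for mitfa, which was 5.74-fold higher in replicate 1 (1.62 to 30.9). The intervals of dct, tyrp1a, pmela and oca2 included 1. Large ratios were frequent among low genes in these libraries. Of 7594 genes with a mean count of 5 to 100, 4.71% were at least 4-fold higher in replicate 2 and 11% at least 4-fold higher in replicate 1. Among the 7 pigment genes in that range, tyr and tyrp1b were at least 4-fold higher in replicate 2 and mitfa in replicate 1.

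The list of melanosome proteins, which includes pmela, pmelb and oca2, was uneven. Of its 13 matched genes, 6 were detected, against 54.6% of all genes, with a median level of 1.22 on the log2(mean TPM + 1) scale, against 1.82 over all genes. The exchanger gene slc24a5, known for its role in the golden mutant, followed pmelb at 16.3 and 13.6 TPM. The transporter gene slc45a2, mutated in albino fish, was at 0.98 and 0.79 TPM. The melanosome receptor gene gpr143 was at 0.46 and 8.28 TPM, from 3 and 55 expected counts, a ratio of 16.0 (5.19 to 79.8). The glycoprotein gene gpnmb, which is also expressed by macrophages, had 1 and 20 expected counts. Of 10 list genes with a mean count of at least 5, these 2 were at least 2-fold higher in replicate 2. By that rule 0 were higher in replicate 1. The shares were 5.6% and 14.3% of all 17435 genes with such a count, which, here and below, are not matched to low counts. For trafficking of melanosomes and related organelles, 22 of 27 matched genes were detected, against 54.6% of all genes, led by bloc1s6, dtnbp1a, rab27a and lyst at means of 25.7 to 37.0 TPM. The melanophilin genes, which link melanosomes to myosin motors, were low, with mlpha at 0 and 0.42 TPM and mlphb at 0.07 and 1.27 TPM, and were singled out after their values were seen.

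Regulators and receptors of the melanophore lineage were mostly low in replicate 2, and 5 of them, the Kit receptor genes included, were at least 2-fold higher in replicate 1. Of 15 matched genes, 3 were detected, namely mitfb, the neural crest factor gene tfap2a at 2.20 and 3.41 TPM, and kitlga, which encodes a Kit ligand, at 17.2 and 9.30 TPM, against 54.6% of all genes. In replicate 1 alone 7 of the 15 reached 1 TPM, against 60.3% of all genes, and 5 had at least 10 expected counts in both libraries. No share of all genes was taken at that minimum of counts. The neural crest factor gene sox10, also active in oligodendrocytes, was at 1.18 and 0.39 TPM, and foxd3 was at 0.73 and 0.82 TPM. The melanocortin receptor gene mc1r was listed at 0 in both libraries. The Kit receptor gene kita, needed for migration and survival of melanophores, was at 3.47 and 0.06 TPM, and kitb at 9.77 and 0 TPM. By CPM kita was 55.1-fold higher in replicate 1 (14.8 to 462) and kitb, taken at 3 counts in replicate 2, 76.2-fold. Of 9 list genes with a mean count of at least 5, the 5 genes mitfa, sox10, crestin, kita and kitb were at least 2-fold higher in replicate 1. By that rule 0 were higher in replicate 2. The share in replicate 1 was 14.3% of all genes with such a count. Among genes averaging 5 to 100 counts, 11% were at least 4-fold higher in replicate 1, so the 14.3% is not matched to low counts. The gene tfap2a was 1.78-fold higher in replicate 2 (1.25 to 2.57). Of 30 matched pineal and photoreceptor markers, 24 reached 1 TPM in replicate 1 and 16 in replicate 2, against 60.3% and 56.8% of all genes, and their summed level was 3561 and 138 TPM. Whether pineal tissue had a part in the levels of mitfa and the Kit receptors was not tested.

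**Figure D4:**
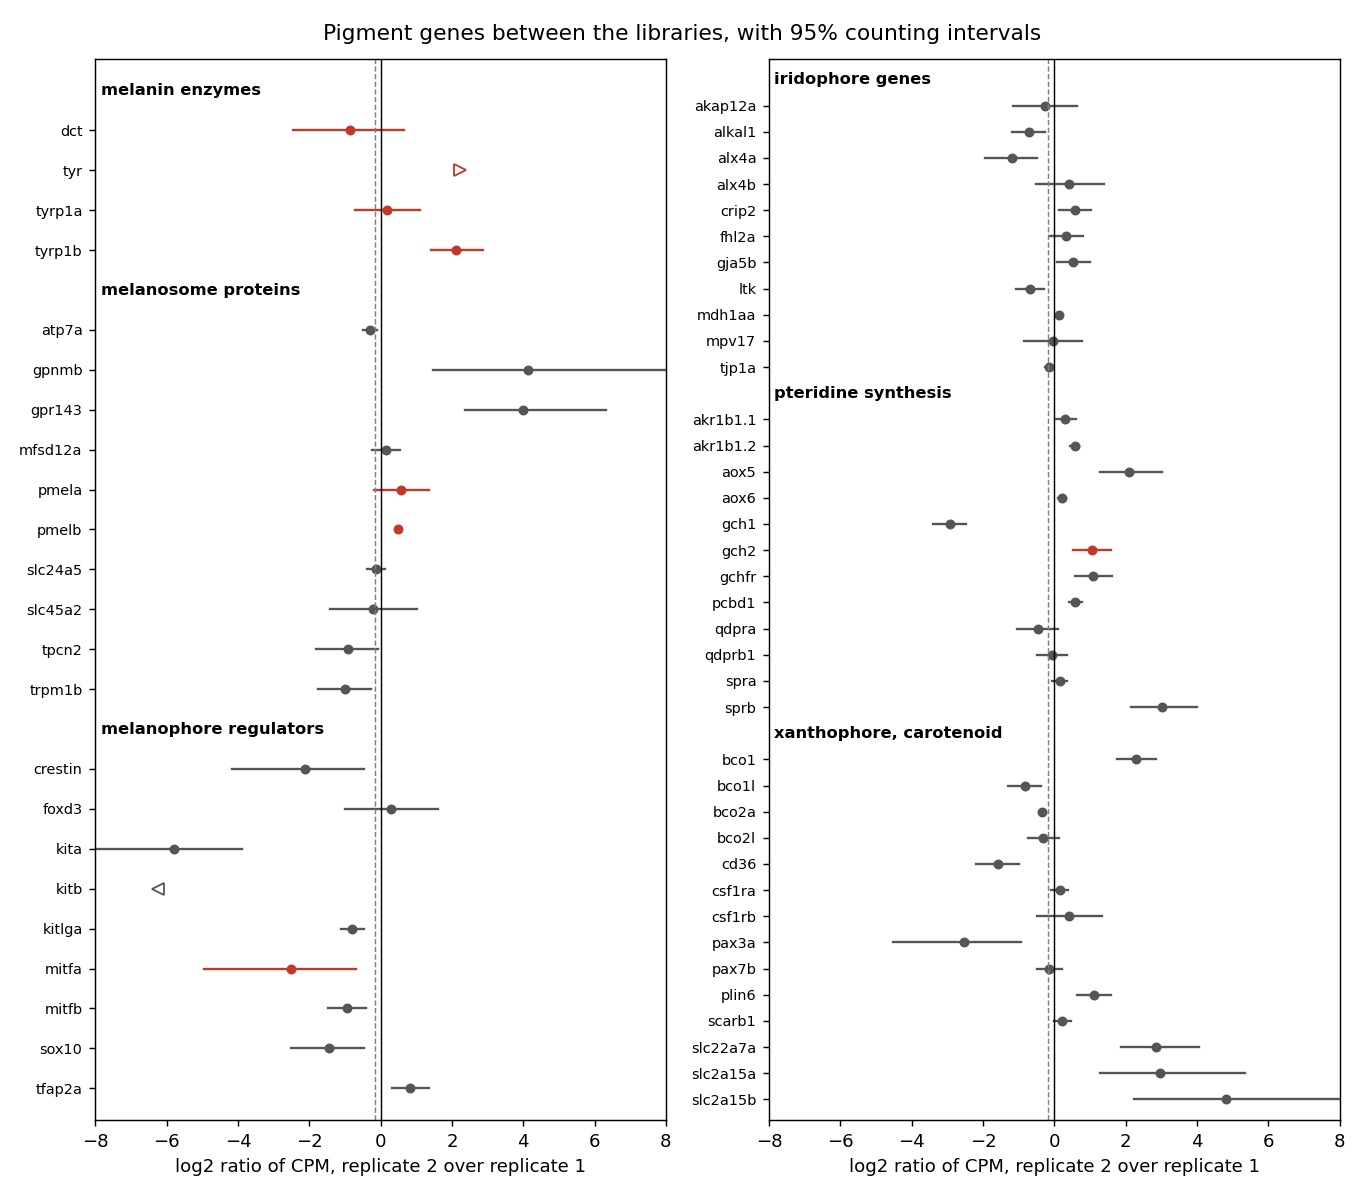
Log2 ratio of CPM, replicate 2 over replicate 1, for every matched gene of 6 pigment lists with a mean expected count of at least 5. Points carry 95% exact counting intervals, and open triangles show genes with no read in a library, taken there at 3 counts. Red marks the 10 pigment genes, and the dashed line is the median gene at -0.17. Bars that reach the edge go beyond the axis.

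Of 18 matched iridophore genes, pnp4a included, 9 were detected, a share near the 54.6% of all genes. Their median level was 1.02 on the log2(mean TPM + 1) scale, against 1.82 over all genes. The receptor gene ltk, needed for the iridophore lineage, was at 3.41 and 1.93 TPM, and alkal1, which encodes a ligand of this receptor, at 8.86 and 3.16 TPM. The lineage factor gene tfec was at 0.29 and 0.08 TPM, and apoda.1 was listed at 0 in both. The sister gene pnp4b had 0 and 9 expected counts. The highest members were mdh1aa, a malate dehydrogenase gene, at 1425 and 1450.1 TPM, and tjp1a, a junction scaffold gene, at 41.8 and 31.4 TPM, and both are expressed in many tissues. Purine enzymes, which iridophores use to make guanine and all cells use for nucleotides, were detected for 20 of 26 matched genes, against 54.6% of all genes. They were led by adssl at 41.0 ± 1.56, paics at 38.0 ± 5.60 and prps1a at 29.4 ± 2.63 TPM (SD, n = 2), and ppat was at 25.2 and 26.9 TPM.

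Pteridine genes were detected for 11 of 14 matched members, against 54.6% of all genes. Their median level was 2.78 on the log2(mean TPM + 1) scale, against 1.82 over all genes. The highest were pcbd1, which recycles the tetrahydrobiopterin cofactor, at 88.1 and 123 TPM, and akr1b1.2 at 70.9 and 96.9 TPM. The gene gch1, whose enzyme makes the same compound as Gch2 and serves neurotransmitter synthesis, was at 11.6 and 2.32 TPM, 7.60-fold higher in replicate 1 by CPM (5.58 to 10.6). The cyclohydrolase genes thus stood in opposite order in the libraries, with gch1 above gch2 in replicate 1 and below it in replicate 2. Of 12 members with a mean count of at least 5, the 4 genes gch2, gchfr, sprb and aox5 were at least 2-fold higher in replicate 2, and gch1 in replicate 1. The shares of all genes with such a count were 5.6% and 14.3%. The sepiapterin reductase gene sprb was at 1.17 and 8.69 TPM, and the xanthophore marker aox5, an aldehyde oxidase gene, at 0.45 and 1.76 TPM. The dehydrogenase gene xdh had 2 expected counts in each library, and pts was listed at 0 in both.

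Genes of xanthophore identity and carotenoid handling were detected for 9 of 17 matched members, a share near the 54.6% of all genes. The receptor gene csf1ra, which xanthophores share with macrophages, was at 8.99 and 9.29 TPM, and the macrophage gene mpeg1.1 was at 2.31 and 3.17 TPM. The factor gene pax7b was at 10.3 and 8.51 TPM, whereas pax7a had 0 and 9 expected counts. The carotenoid uptake receptor gene scarb1 was at 11.7 and 14.4 TPM, and the carotenoid cleavage genes bco2a and bco1 were at 66.1 and 45.2 TPM and at 2.60 and 12.2 TPM. Of 14 members with a mean count of at least 5, the 5 genes bco1, plin6, slc2a15a, slc2a15b and slc22a7a were at least 2-fold higher in replicate 2. The share of all genes with such a count was 5.6%. The genes pax3a and cd36 were at least 2-fold higher in replicate 1, where the share of all genes with such a count was 14.3%. The sugar transporter family gene slc2a15b, required for the yellow colour of pigment cells in medaka, had 1 and 32 expected counts. The CPM ratio of slc22a7a, a transporter gene, was 7.26 (3.63 to 16.5). In the same direction, the 7 red blood cell markers summed to 1764 and 5923 TPM, and their part in these differences was not tested.

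Other tissues that share pigment genes were checked by their markers. Of 18 markers of the retinal pigment epithelium, 14 were detected, against 54.6% of all genes, led by stra6 at 750.1 and 691 TPM, rpe65a at 490 and 333 TPM, otx2b, and best1 at 129 and 166 TPM. Of these, stra6 and otx2b are also choroid plexus genes. The visual cycle genes rlbp1a and rlbp1b were at 10.4 and 0.98 TPM and at 25.9 and 4.23 TPM. Of 16 markers averaging 5 or more counts, 5 were higher in replicate 1 by at least 2-fold and 0 in replicate 2. The shares of all genes with such a count were 14.3% and 5.6%. Among the 4 highest markers, the CPM ratio, replicate 2 over replicate 1, went both ways. It was 1.01 for stra6, 0.74 for rpe65a, 1.39 for otx2b and 1.41 for best1, beside 1.41 for pmelb. By TPM less the median gene, 6 of 16 markers with a mean of at least 1 TPM were higher in replicate 2 and 10 in replicate 1. Of all 15125 genes with such a mean, 7562 lay on each side, which subtracting the median gene fixes. The list summed to 2120 and 1817 TPM, and its part in the level of pmelb was not tested. For oligodendrocytes and Schwann cells 4 of 12 markers were detected, or 7 of 12 at a minimum of 10 expected counts, with mbpa at 6.47 and 5.04 TPM and olig2 at 0 and 0.06 TPM. Of 14 macrophage markers, 11 were detected, led by cd74a, lgmn, apoeb and lcp1. The 4 of 12 and the 11 of 14, both at 1 TPM in each library, stand beside the same 54.6% of all genes. No share of all genes was taken at the minimum of 10 expected counts.

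**Figure D5:**
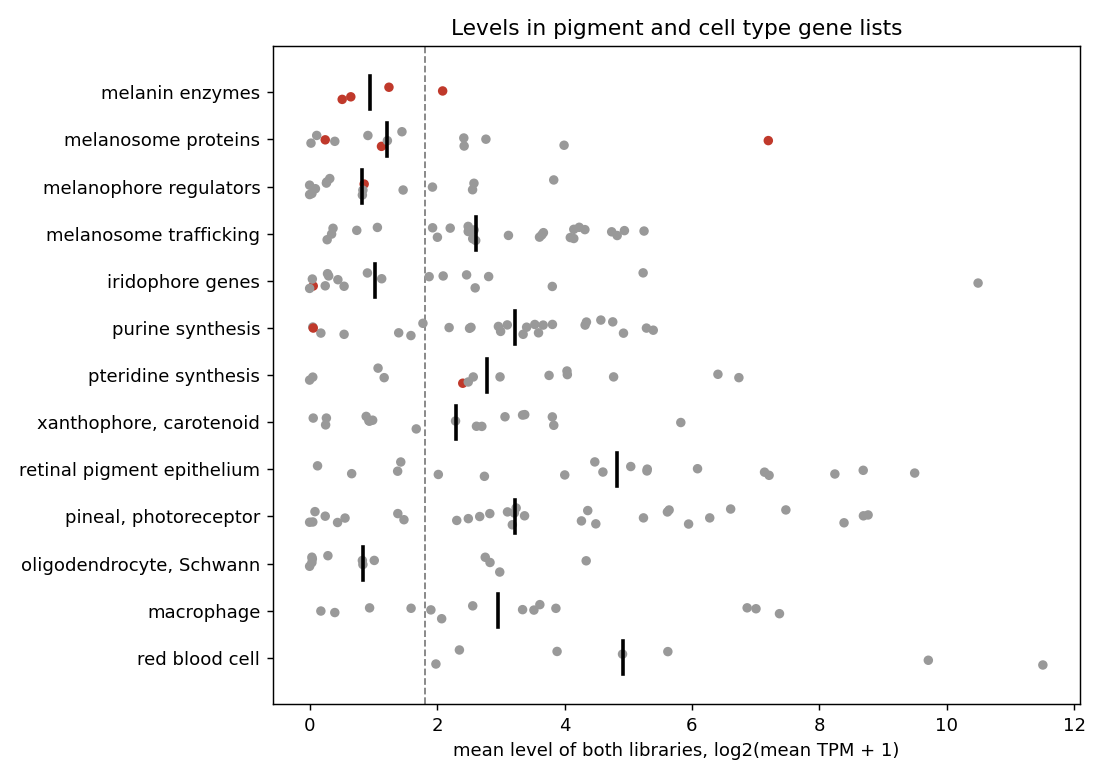
Mean level over both libraries, log2(mean TPM + 1), of each matched gene in 13 lists. Black bars are list medians, red points are the 10 pigment genes, and the dashed line is the median of all genes at 1.82. The medians of melanin enzymes (0.95), melanosome proteins (1.22), melanophore regulators (0.83), iridophore genes (1.02) and oligodendrocyte and Schwann cell markers (0.83) lie below this line.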

How the data were processed

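The submitters' processing notes name STAR, RSEM 1.3.3 and genome build GRCz11. The STAR version, the annotation and the strand setting were not given there. The authors deposited, per the file headers, expected counts of each gene as estimated by RSEM, with TPM and FPKM beside them. The authors' FPKM were not analysed. The deposited table of the whole series was used for gene names only, and it named all 10 pigment genes. Other names came from a table of gene symbols and from RefSeq synonyms of assembly GRCz12tu, and 206 of 216 list symbols matched. Gene entries of 1 symbol were summed.

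Levels are TPM with the SD of 2 libraries. Ratios and intervals were computed from rounded counts with Python 3.11.15 and SciPy 1.17.1, Poisson intervals by the chi-square method and ratio intervals by the exact binomial method, at 95%. The intervals cover counting error only. As the PCR reads carry no known molecular identifiers, copies of a molecule cannot be told apart, and the intervals may be too narrow. A count of 3 equals 0.256 and 0.223 CPM. Trimmed mean scaling factors, from edgeR 4.0.16, were used in 1 alternative. The counting intervals were tested on simulated Poisson counts. Folds taken at 3 counts for a gene with no read were not tested.

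The 10 genes and all lists were chosen with earlier results of these data known. All 10 are named, with any gene of the pigment lists, the 4 highest genes of other lists and fixed markers. The melanophilin genes mlpha and mlphb were named outside this rule, after their values were seen. Genes of like pattern over samples were not sought, because 2 libraries give any pair a correlation of 1 or -1. Promoters and proteins were not analysed here.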

Additional observations from a re-analysis of the deposited data

How the results depend on the processing

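No paired analysis was possible because both libraries form 1 group. The median melanophore gene was 1.03 above pnp4a on the log2(TPM + 1) scale. It was 3.18 above with a pseudocount of 0.1, 1.16 above with CPM and 0.89 above without pmelb, and 1.00 to 1.06 with 1 library left out. The size of this difference therefore depends on the pseudocount. Against gch2 the median was -1.27. It was -1.78 with a pseudocount of 0.1, -1.37 with CPM, -1.41 without pmelb, and -1.67 to -0.87 with 1 library left out. These moves lay within the SD of the 2 libraries, 0.56, which is wide because the libraries disagreed. Leaving out 1 of 2 libraries cannot move the mean by more than that SD, so it is no check here. The median log2 ratio of the 10 genes between libraries, replicate 2 over replicate 1 less the median gene, was 0.40. It was 0.61 with a pseudocount of 0.1, 0.42 with CPM, 0.38 with trimmed mean scaling and 0.71 for those members whose mean reached 1 TPM. The 4 detected melanophore genes became 5 without replicate 2 and stayed 4 in number without replicate 1. Of the regulator list, 3 genes were detected, 3 to 7 with 1 library left out, and 5 at a minimum of 10 expected counts. Of the oligodendrocyte and Schwann cell list, 4 were detected, and 7 at that minimum, for which no share of all genes was taken. The other 11 lists stayed within 1.5 times their count. The causes were not tested. Of the pigment genes other than pmelb, tyrp1b and gch2, each had at most 41 counts per library, so differences of small size were not detectable at this depth.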
